A study of Homo sapiens with 6 samples.

Results

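The MYC, MAX and MXD network was measured in the RNA of ZR-75-30 cells, an established human breast adenocarcinoma line with amplified ERBB2, after infection with a CDK12 lentivirus (pLVX-CDK12, 3 libraries) or with the control lentivirus pLVX (3 libraries). Its members were taken by symbol: MYC, MAX, MXD1, MXD3, MXD4, MXI1, MNT, MLX, MLXIP and MGA, 10 of the 26364 gene symbols in the count files. All 10 were found in all 6 libraries, with 170 to 3283 counts each, and all 10 passed the filter on low counts. Both groups carry a lentivirus, so the comparison sets CDK12 cargo against none. The labels call the libraries biological replicates of epithelial cells but do not say whether they came from separate infections, or whether the infected cells were selected, cloned or pooled. The p-values therefore measure only the spread between these libraries.

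The network is a set of transcription factors that share MAX as a partner. MYC pairs with MAX, binds the E-box CACGTG and activates genes of growth, ribosome production and metabolism. MXD1, MXD3, MXD4, MXI1 and MNT compete for MAX and for the same DNA letters, and bring the SIN3 and histone deacetylase corepressors. MLX is another MAX-like hub that pairs with the glucose sensor MondoA, the product of MLXIP, and MGA joins MAX in a silencing complex called PRC1.6. MYC is a driver gene of many breast cancers. CDK12, a kinase that pairs with cyclin K, phosphorylates RNA polymerase II as it elongates.

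The E-box is shown here because it is the sequence that the members read, and because some members and targets carry it themselves. RefSeq promoter windows of 300 bases, 250 before and 50 after each annotated start (GRCh38.p14), were searched for CACGTG, which reads the same on both strands. Of the 10704 genes tested with a window, 12.4% held it. Of the 9 members with a window, 3 held it, MXD4, MNT and MLX, and their 250 bases before the start are given 5′ to 3′ with the E-box in capitals. SRM, the spermidine synthase gene, and ODC1, the ornithine decarboxylase gene, are MYC targets of the same polyamine route and are shown beside them because one fell and the other rose; SRM was chosen after its values were seen.
MXD4 promoter, chr4:2262110-2262359, minus strand: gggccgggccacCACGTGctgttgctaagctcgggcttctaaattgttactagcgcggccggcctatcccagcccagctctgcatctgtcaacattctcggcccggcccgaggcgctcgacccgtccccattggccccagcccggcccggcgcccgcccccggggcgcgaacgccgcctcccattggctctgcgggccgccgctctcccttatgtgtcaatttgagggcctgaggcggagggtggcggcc
MNT promoter, chr17:2401061-2401310, minus strand: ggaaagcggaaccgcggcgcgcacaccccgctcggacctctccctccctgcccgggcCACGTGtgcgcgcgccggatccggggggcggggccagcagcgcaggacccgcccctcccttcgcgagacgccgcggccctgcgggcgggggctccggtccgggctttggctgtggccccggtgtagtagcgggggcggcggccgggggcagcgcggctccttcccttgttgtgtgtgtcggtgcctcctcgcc
MLX promoter, chr17:42566850-42567099, plus strand: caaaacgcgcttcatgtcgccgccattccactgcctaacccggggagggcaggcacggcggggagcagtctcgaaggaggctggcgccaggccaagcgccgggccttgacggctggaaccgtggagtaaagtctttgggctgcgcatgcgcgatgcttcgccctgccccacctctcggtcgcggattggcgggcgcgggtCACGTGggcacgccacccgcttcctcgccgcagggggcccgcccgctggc
SRM promoter, chr1:11060019-11060268, minus strand: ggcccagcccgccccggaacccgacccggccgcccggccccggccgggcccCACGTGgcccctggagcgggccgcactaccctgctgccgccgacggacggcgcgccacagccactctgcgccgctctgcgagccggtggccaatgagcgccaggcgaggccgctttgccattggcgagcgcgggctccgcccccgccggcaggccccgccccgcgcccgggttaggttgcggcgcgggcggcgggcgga
ODC1 promoter, chr2:10448013-10448262, minus strand: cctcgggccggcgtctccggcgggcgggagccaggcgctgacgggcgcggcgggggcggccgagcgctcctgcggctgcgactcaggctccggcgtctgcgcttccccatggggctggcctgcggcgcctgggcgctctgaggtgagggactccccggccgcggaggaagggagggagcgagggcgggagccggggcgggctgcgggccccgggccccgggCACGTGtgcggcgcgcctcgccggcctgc
The E-box began 238 bases before the start in MXD4, 193 in MNT, 50 in MLX, 199 in SRM and 29 in ODC1. ODC1 had 2 windows, and only 1 of them, the one shown, held the E-box. A match is only a description of these letters, and binding was not measured.

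The libraries held 21178163 to 26543653 counts. CDK12 itself was at 2009, 2240.0 and 2124 CPM (counts relative to library size, scaled by TMM) in the CDK12 libraries and at 79.0, 81.8 and 72.8 CPM in the control libraries, as the labels say (27.3-fold). Luminal epithelial genes, EPCAM, CDH1, keratins, ESR1, GATA3 and ERBB2, summed to 11911 to 12462 CPM in the CDK12 libraries and 13564 to 14199 CPM in the controls. ERBB2 alone had means of 7357 CPM with CDK12 and 8656 CPM in controls. The 4 leukocyte markers summed to 1.07 to 1.54 CPM with CDK12 and 3.37 to 3.60 CPM in controls. The 3 endothelial ones summed to 1.41 to 2.17 and 2.16 to 2.84 CPM. The 5 fibroblast ones, nearly all COL1A1, summed to 60.3 to 71.1 and 46.6 to 51.3 CPM. Within these sums, genes went opposite ways. PTPRC was lower with CDK12 (log2 fold change -3.02) and CD14 higher (0.85), and COL1A1 was higher (0.40) and COL3A1 lower (-2.44). The 10 interferon response genes summed to 60.5 to 66.0 CPM with CDK12, against 350.3, 372 and 649 CPM in the controls, the highest in control replicate 1. The part of these differences in the members' values was not tested, and the results that change without that library are given with and without it.

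MYC messenger RNA was lower with CDK12, and it moved farther than any other member. It was at 91.9, 87.8 and 89.1 CPM in the CDK12 libraries, against 119, 115 and 109.9 CPM in the controls. The groups did not overlap, and the CDK12 libraries lay close together. The log2 fold change was -0.36 (SE 0.045, 95% interval -0.45 to -0.26), a 1.28-fold lower level, with an adjusted p of 5.68e-07 (quasi-likelihood test of edgeR, adjusted by Benjamini-Hochberg, BH, across the 14665 genes). Of the 14665 genes tested, 6.77% had a more negative fold change. MYC passed in all 15 alternative settings run against no change (edgeR, DESeq2 or limma-voom adjusted p from 9.6e-12 to 2.78e-05), with a log2 fold change of -0.33 without control replicate 1. Against a fold of 1.2 it did not pass (glmTreat of edgeR, BH-adjusted p = 0.0835). The exact two-sided permutation test gave p = 0.1, the floor for 3 libraries against 3. In bulk RNA, fewer cells with the transcript and less transcript per cell cannot be told apart.

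**Figure D1:**
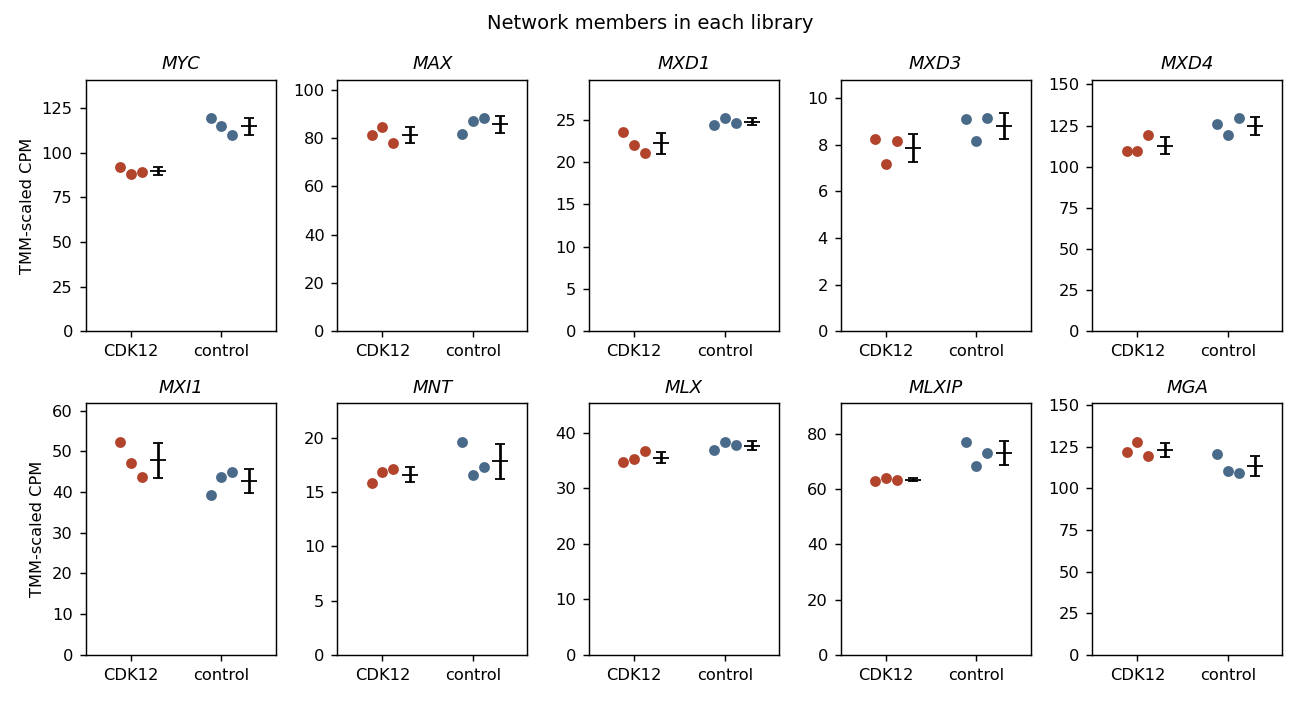
Each panel plots 1 member in TMM-scaled CPM (y axis from 0) for the 3 CDK12 and the 3 control libraries as points, with the mean and SD (n = 3) beside them. MYC at 87.8 to 91.9 CPM with CDK12 lies below its 109.9 to 119 CPM in controls, while MXI1 and MGA lie slightly higher with CDK12 and overlap the controls.

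Of the 10 members, 3 fell (MYC, MXD4 and MLXIP), 2 rose (MXI1 and MGA) and 5 did not pass. That is 5 of 10 called, where 35.1% of all genes tested were called. Of all genes, 18.9% were lower and 16.2% higher. These shares include genes with few counts. The share called among genes at the level of the members, or of the lists below, was not computed. The members' median log2 fold change was -0.12, against 0.00 over all genes, with 8 members below 0 and 2 above. The groups' libraries did not overlap for 4 members, MYC, MXD1, MLX and MLXIP, where 45.6% of all genes tested did not overlap. Against a fold of 1.2, 0 of the 10 members passed, where 6.4% of all genes did. At an unadjusted p under 0.05 against no change in edgeR, 6 members passed. Of the 14665 genes, 3115 were higher and 3427 lower at that limit. The DESeq2 Wald test called 3 members, all lower, where it called 1699 of the 14665 genes higher and 2275 lower. These counts are given as descriptions of a list of 10 genes.

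**Figure D2:**
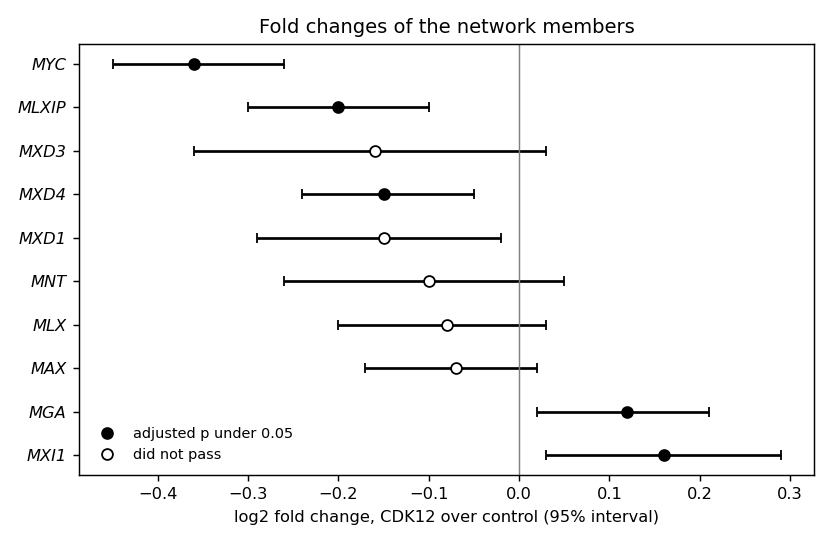
Log2 fold changes of CDK12 over control (x axis) for the 10 members, with 95% intervals from edgeR's quasi-likelihood fit; filled points passed an adjusted p of 0.05. MYC lies farthest from 0 at -0.36, and the rises of MXI1 (0.16) and MGA (0.12) have intervals that reach down to 0.03 and 0.02.

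MAX, a partner shared by MYC and the MXD proteins, was at 81.5, 84.6 and 78.2 CPM with CDK12 and 81.9, 87.0 and 88.4 CPM in controls. The groups overlapped, and MAX did not pass the test (log2 fold change -0.07, 95% interval -0.17 to 0.02, BH-adjusted p = 0.231 in edgeR). MLX, the hub of the parallel glucose-sensing branch, was at 34.7, 35.3 and 36.6 CPM with CDK12 and 36.8, 38.4 and 37.8 CPM in controls. Its libraries did not overlap, by a narrow margin, and it did not pass either (log2 fold change -0.08, 95% interval -0.20 to 0.03, adjusted p = 0.253, edgeR). These intervals do not show that the hubs were level. In GENCODE 29, 29.7% of the exon bases of MLX lie opposite exons of PSMC3IP, and the strand setting of the counting is not given, so the MLX counts are uncertain.

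The MXD repressors differed in direction. MXD4, the one of them with the most messenger RNA here, was at 109.8, 109.8 and 119 CPM with CDK12 and 126, 119 and 129.6 CPM in controls. The highest CDK12 library touched the lowest control, and the fall was small (log2 fold change -0.15, SE 0.046, BH-adjusted p = 0.0145 in edgeR). MXD4 did not pass with upper-quartile factors (adjusted p = 0.0657), with total counts (0.0788), or without CDK12 replicate 2 (0.0645), control replicate 1 (0.0545) or control replicate 3 (0.104).

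MXI1, a MAX partner also known as MAD2 of the MAD family, rose slightly. It was at 52.3, 47.2 and 43.7 CPM with CDK12, against 39.4, 43.8 and 45.0 CPM in controls. The groups overlapped, since CDK12 replicate 3 lay below the 2 higher controls. The log2 fold change was 0.16 (SE 0.063, BH-adjusted p = 0.0462 in edgeR). It was 0.09 without CDK12 replicate 1 (adjusted p = 0.277) and 0.11 without control replicate 1 (0.259), so both libraries bear on the size. MXI1 also failed to pass without CDK12 replicate 2 (0.0621), without control replicate 2 (0.0618) and with the DESeq2 Wald test (0.0874).

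MXD1, induced in many cells as they differentiate, was at 23.5, 22 and 21.1 CPM with CDK12 and 24.4, 25.2 and 24.6 CPM in controls. The groups did not overlap, yet the adjusted p was 0.0675 (log2 fold change -0.15, 95% interval -0.29 to -0.02, BH adjustment in edgeR), and 0.0311 without CDK12 replicate 1. MXD3, the member with the fewest counts, was at 8.25, 7.17 and 8.17 CPM with CDK12 and 9.09, 8.15 and 9.13 CPM in controls. Its groups overlapped and its interval was the widest of the 10 (-0.36 to 0.03, adjusted p = 0.196, edgeR). Exons of PRELID1 on the other strand cover 22.2% of its exon bases. MNT, a repressor expressed in most tissues, was at 15.9, 16.8 and 17.1 CPM with CDK12 and 19.6, 16.5 and 17.3 CPM in controls. Only control replicate 1 stood above the rest, and MNT did not pass (log2 fold change -0.10, 95% interval -0.26 to 0.05, BH-adjusted p = 0.303 in edgeR; -0.03 without that library). An antisense gene, AC006435.1, shares 21.3% of its exon bases.

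The 2 large members went opposite ways. MLXIP, the gene of the glucose sensor MondoA, was at 63.0, 64.1 and 63.1 CPM with CDK12, against 77.0, 68.4 and 73.0 CPM in controls. The CDK12 libraries were nearly equal and all lay below the controls. The log2 fold change was -0.20 (SE 0.05, BH-adjusted p = 0.00234 in edgeR), and MLXIP passed in all 15 settings run against no change (adjusted p from 0.000911 to 0.0353, the highest without control replicate 1). MGA, the MAX partner of PRC1.6, was at 122, 128 and 119 CPM with CDK12 and 121, 110.3 and 109 CPM in controls. Control replicate 1 lay within the CDK12 range, and the rise was the smallest change called among the members (log2 fold change 0.12, SE 0.046, adjusted p = 0.0451, edgeR). MGA did not pass without CDK12 replicate 2 (0.183), control replicate 2 (0.163) or control replicate 3 (0.192), or with the DESeq2 Wald test (0.0722).

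Levels were set side by side per kilobase of exon, with exon lengths from the basic set of GENCODE 29 on GRCh38; the authors counted on hg19, so the lengths are approximate. With CDK12, MYC was highest at 29.9 ± 0.699 CPM per kb (SD, n = 3), then MXD4 at 27.8 ± 1.33, MAX at 19.9 ± 0.791, MLX at 13.7 ± 0.390 and MXI1 at 11.8 ± 1.07 CPM per kb. MGA at 8.11 ± 0.285, MLXIP at 6.73 ± 0.0626, MXD1 at 3.95 ± 0.220, MNT at 3.33 ± 0.132 and MXD3 at 2.39 ± 0.183 CPM per kb followed. In the controls, MYC was at 38.2 ± 1.57 and MXD4 at 30.8 ± 1.31 CPM per kb, and the order was the same but for MLXIP (7.73 ± 0.458) and MGA (7.47 ± 0.412 CPM per kb), which changed places. Among neighbours in these orders the library ranges overlapped for MYC and MXD4 with CDK12 and for MLXIP and MGA in controls, and for no other pair. Exons on the other strand share 29.7% of the exon bases of MLX, 22.2% of MXD3 and 21.3% of MNT. The full lengths were used for these 3, so their places in the orders are uncertain.

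Ratios of counts within a library do not depend on the scaling between libraries. MYC counts per count of MXI1 were 1.76, 1.86 and 2.04 with CDK12, against 3.03, 2.62 and 2.44 in controls. MYC per MGA was 0.753, 0.686 and 0.746 with CDK12 and 0.989, 1.04 and 1.01 in controls. For both ratios every CDK12 library lay below every control, and the mean log2 ratios were lower by the differences of -0.52 for MXI1 and -0.48 for MGA. MYC per MAX was 1.13, 1.04 and 1.14 with CDK12 and 1.46, 1.32 and 1.24 in controls, a difference in log2 ratio of -0.28. The ratio of MYC to the other member did not overlap between groups for 8 of the 9 members, MXD3 being the exception. The same held for 78.2% of the other 14664 genes tested, since MYC itself does not overlap, so this count is close to the background. The differences for the remaining 6 ran from -0.27 for MLX to -0.16 for MLXIP. All 9 ratios share the MYC counts, so they are not 9 separate results, and per-count ratios of different genes are not molar ratios.

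**Figure D3:**
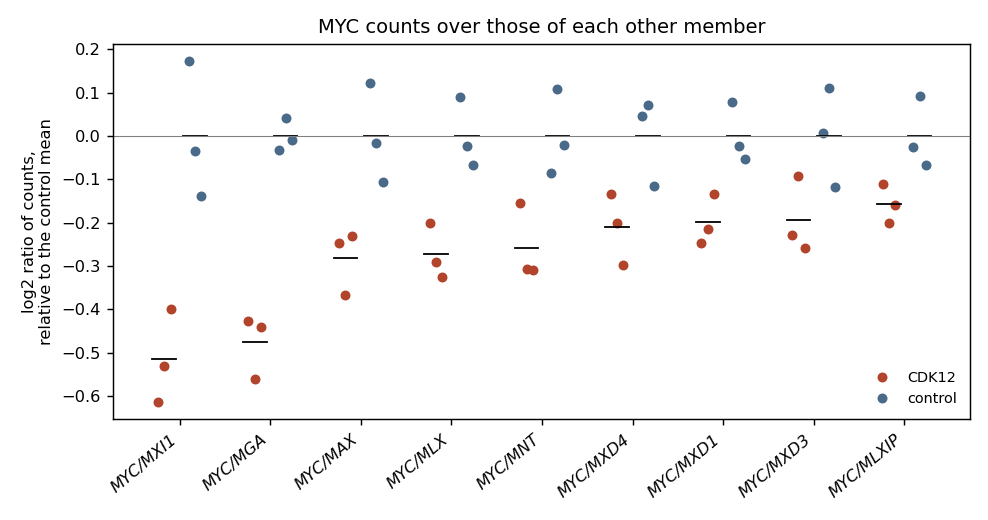
Log2 of MYC counts over those of each other member within each library, relative to the mean of the controls (y axis), for CDK12 and control libraries; bars are means of 3 libraries. MYC over MXI1 (-0.52) and MYC over MGA (-0.48) are lowest with CDK12, and all but MYC over MXD3 separate the groups, as 78.2% of all genes do.

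Set against MAX in place of MYC, MXI1 and MGA had higher ratios with CDK12 in every library than in any control. Of all other genes tested, 39.7% had ratios to MAX that did not overlap, so a separation of this kind is common. The ratio of MYC to MAX, given above, also did not overlap and was lower with CDK12. MXI1 per MAX was 0.642, 0.557 and 0.559 with CDK12 and 0.481, 0.504 and 0.509 in controls. MGA per MAX was 1.5, 1.51 and 1.53 with CDK12 and 1.47, 1.27 and 1.24 in controls. The ratios of MXD1, MXD3, MXD4, MNT, MLX and MLXIP to MAX overlapped between groups.

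MYC-activated targets were more often lower than higher. Of 57 listed genes of ribosome production, translation, nucleotide and polyamine synthesis and metabolism, 54 were tested, 23 fell, 4 rose and 27 were not called. The list's median log2 fold change was -0.11, against 0.00 over all genes, and 42.6% of its tested genes fell against 18.9% of all genes. With upper-quartile factors 18 fell and 6 rose, and with total counts 17 and 6. EIF4A1 is listed at 0 counts in all 6 libraries. The annotation of the counting is not given, so this is not read as a lack of its messenger RNA. TERT and CCND2 did not reach the filter.

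PHB, the prohibitin gene, was at 457, 429.5 and 438 CPM with CDK12 and 563, 558 and 579.8 CPM in controls (log2 fold change -0.36, BH-adjusted p = 5.8e-08 in edgeR). BOP1 and NOP2, which act in large ribosomal subunit assembly, fell to 87.3 ± 0.587 and 88.7 ± 1.32 CPM with CDK12, against 112 ± 3.95 and 109 ± 1.91 CPM in controls (SD, n = 3). NME1, a nucleoside diphosphate kinase gene, fell to 63.6 ± 3.70 CPM with CDK12, against 81.2 ± 3.08 CPM in controls. The groups of these 4 genes did not overlap, but the genes were named for their small p-values, and 45.6% of all genes tested did not overlap. The polyamine pair went apart: SRM was at 21, 20.3 and 21.5 CPM with CDK12 and 28.2, 25.9 and 29.3 CPM in controls (log2 fold change -0.41, adjusted p = 2.06e-05, edgeR), whereas ODC1 was at 55.8, 54.7 and 52.0 CPM with CDK12 and 43.7, 42.0 and 44.4 CPM in controls (0.32, adjusted p = 2.69e-05). SLC3A2, the heavy chain of an amino acid transporter, rose to 423 ± 21.2 CPM, against 377 ± 9.09 CPM in controls. Of the 43 tested targets with a promoter window, 22 (51.2%) held the E-box, against 12.4% of the 10704 tested genes with one. Among the targets that fell it was 8 of 19, among those that rose 2 of 3, and among those not called 12 of 21.

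Genes listed as repressed by MYC went both ways. Of 14 tested, 4 rose, 4 fell and 6 were not called, and the median was -0.06 (log2). That is 57.1% called, against 35.1% of all genes. DDIT3, a stress transcription factor, rose to 60.0 ± 3.42 CPM with CDK12, against 43.5 ± 1.75 CPM in controls, and CEBPA, a differentiation factor, to 58.9 ± 1.24 against 48.8 ± 3.57 CPM. NDRG2 and FTH1, the ferritin heavy chain gene, also rose (log2 fold changes 0.24 and 0.11), though NDRG2 did not pass without control replicate 2 (BH-adjusted p = 0.102 in edgeR), and FTH1 did not without CDK12 replicate 1 (0.0572), CDK12 replicate 3 (0.119), control replicate 1 (0.114) or control replicate 2 (0.143). THBS1, the thrombospondin-1 gene, fell to 141 ± 2.55 CPM with CDK12, against 185 ± 4.09 CPM in controls, and RHOB, a small GTPase gene, to 159.6 ± 5.93 against 208 ± 12 CPM. CDKN1A, the cell cycle inhibitor p21, was at 909, 917 and 911 CPM with CDK12 and 961, 943 and 985 CPM in controls and did not pass (log2 fold change -0.08, adjusted p = 0.116, edgeR); it is named outside the naming rule.

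In the MLX branch, the best-known target rose while MLXIP fell. TXNIP, an arrestin-like inhibitor of glucose uptake, was at 564, 566 and 571 CPM with CDK12, against 429.6, 438 and 429 CPM in controls. The libraries of each group were nearly equal and far apart from the other group (log2 fold change 0.39, SE 0.038, BH-adjusted p = 5.68e-09 in edgeR). MLXIPL, the gene of ChREBP and paralog of MLXIP, was at 4.53, 4.57 and 4.88 CPM with CDK12 and 3.34, 3.12 and 3.04 CPM in controls, at a low level but without overlap (log2 fold change 0.56, SE 0.128, adjusted p = 0.00125, edgeR). Of the other targets tested, PFKFB3 and HK2, enzymes of glucose breakdown, fell (log2 fold changes -0.14 and -0.18), and ARRDC4, ARRDC3 and KLF10 did not pass. Of the 8 listed targets, 6 were tested and 3 were called, 50% against 35.1% of all genes. The share higher was 16.7%, against 16.2% of all genes, and the share lower 33.3%, against 18.9%. PKLR and G6PC did not reach the filter. With upper-quartile factors or total counts ARRDC4 and KLF10 also passed as higher, and PFKFB3 did not pass with total counts (adjusted p = 0.0565) or without control replicate 1 (0.0581). Without CDK12 replicate 1, 2 of the list were higher, KLF10 with TXNIP.

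In the MGA branch, PCGF6, the Polycomb ring finger subunit of PRC1.6, rose with MGA. It was at 18.5, 20.3 and 18.5 CPM with CDK12, against 14.7, 15.4 and 14.3 CPM in controls (log2 fold change 0.37, SE 0.073, BH-adjusted p = 0.00029 in edgeR). Of the 16 PRC1.6 genes tested, WDR5, a histone methylation reader, fell (-0.16) and the other 14 did not pass, E2F6, L3MBTL2, RING1 and RNF2 among them. That is 12.5% called, below the 35.1% of all genes. Without CDK12 replicate 1, RNF2 and YAF2 also passed as higher, and without CDK12 replicate 3, HDAC2 did, L3MBTL2 passed as lower and WDR5 did not pass (BH-adjusted p = 0.0731 in edgeR). With total counts WDR5 did not pass either (0.0569), and YAF2 and HDAC2 were higher, as with upper-quartile factors. Of 16 germline genes listed as silenced by the complex, 8 passed the filter. Of these, 0 were called by edgeR's quasi-likelihood test, 0 at an unadjusted p under 0.05 and 0 by DESeq2 or limma-voom. TDRD1 (107 CPM with CDK12, 104 CPM in controls) and TDRKH (27.1 and 25.4 CPM) were well expressed. The others tested had group means of 0.358 to 1.97 CPM. Silencing itself was not tested. With no filter beyond 1 count, DDX4 and STK31 passed as lower; DDX4 had 0 counts in each CDK12 library and 0.336 to 0.649 CPM in controls. STK31 also passed without CDK12 replicate 1 and without control replicate 1.

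Among cofactors of MYC the calls were all lower, and among the corepressors of its rivals they went both ways. Of 18 cofactor genes tested, 9 fell and 0 rose, 50% called against 35.1% of all genes, and the median was -0.13 (log2); at an unadjusted p under 0.05, 11 were lower and 1, CHD8, was higher, and 0 were called higher by DESeq2 or limma-voom. SMARCB1, a chromatin remodelling subunit that binds MYC, was at 82.0, 80.5 and 80.5 CPM with CDK12 and 101, 102 and 106 CPM in controls (log2 fold change -0.35, BH-adjusted p = 5.37e-07 in edgeR). HCFC1, a MYC-binding host cell factor, fell to 129 ± 11.8 CPM with CDK12, against 162 ± 7.83 CPM in controls, and RUVBL2, a helicase of the TIP60 complex, to 96.8 ± 3.43 against 117 ± 5.02 CPM. TRIM28, a corepressor, fell by less (-0.15). With total counts 5 cofactors were lower, and 1, CHD8, was higher with total counts, with upper-quartile factors, without CDK12 replicate 1 and without control replicate 1.

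Of 17 SIN3 and histone deacetylase genes tested, 2 rose, 2 fell and 13 did not pass. The share called was 23.5%, against 35.1% of all genes. ARID4B and ARID4A, subunits of the SIN3 complex, rose to 198 ± 0.871 and 53.8 ± 3.46 CPM with CDK12, against 177 ± 10.1 and 46.9 ± 3.59 CPM in controls. BRMS1 and ING2, also SIN3 subunits, fell (log2 fold changes -0.27 and -0.22). SIN3A, the scaffold that the MXD proteins bind, was at 69.3, 69.0 and 68.0 CPM with CDK12 and 70.6, 67.8 and 64.1 CPM in controls and did not pass (adjusted p = 0.695 by edgeR's quasi-likelihood test); it is named outside the rule. With upper-quartile factors 4 were higher and 1 lower, with total counts 5 and 1. Without CDK12 replicate 2 or control replicate 3, 1 was higher, without CDK12 replicate 3, 4 were, and without control replicate 1 or 3, 1 was lower; ING2 missed the threshold in the Wald test of DESeq2 (0.112), with either of these scalings, or without CDK12 replicate 3, control replicate 1 or control replicate 3. ARID4A did not pass without CDK12 replicate 2 (BH-adjusted p = 0.0722 in edgeR) or control replicate 3 (0.101), and ARID4B did not without control replicate 3 (0.0625).

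Among 20 genes that control the stability of MYC protein, 3 rose, 7 fell and 10 did not pass. That is 50% called, against 35.1% of all genes, and 35% lower, against 18.9%. USP36, a nucleolar enzyme that removes ubiquitin from MYC, rose to 123 ± 1.76 CPM with CDK12, against 107 ± 8.12 CPM in controls (SD, n = 3). PLK1, a mitotic kinase, fell to 14.7 ± 0.852 CPM with CDK12, against 18.5 ± 1.02 CPM in controls. GSK3A, AXIN1 and PPP2R1A, which act in MYC phosphorylation and its removal, fell with log2 fold changes of -0.24, -0.22 and -0.18. FBXW7, the ligase of the phosphorylated degron, was at 27.5, 28.3 and 25.7 CPM with CDK12 and 27.3, 27.8 and 27.7 CPM in controls, with full overlap (BH-adjusted p = 0.809 in edgeR), and is named outside the rule. With either upper-quartile factors or total counts, and without CDK12 replicate 3 or control replicate 2, 4 genes of this list were lower.

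**Figure D4:**
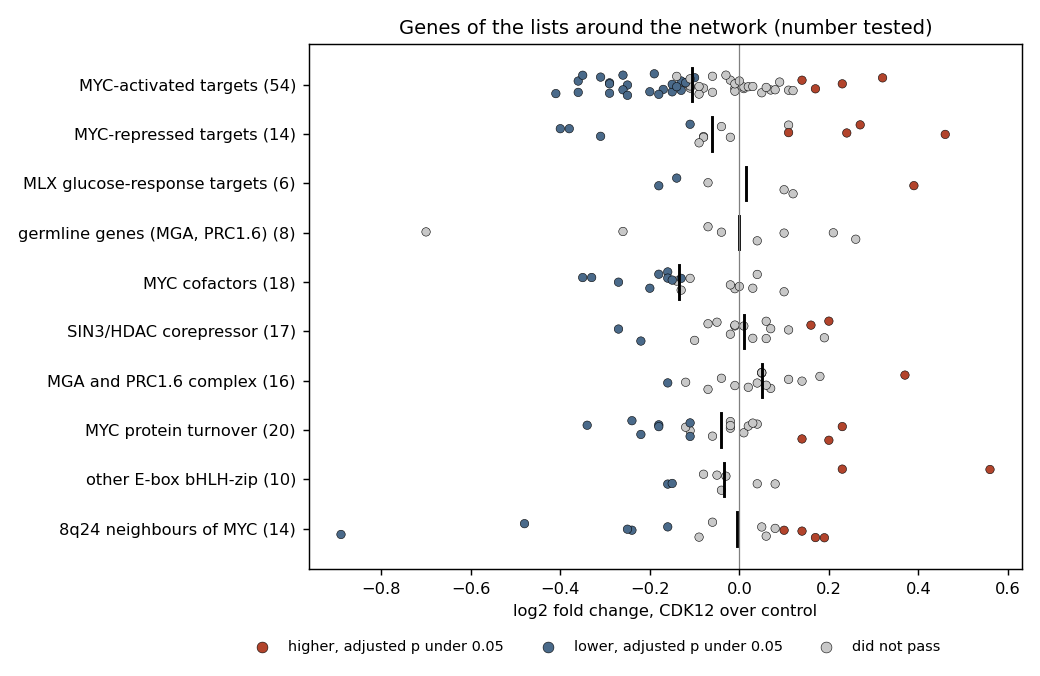
Log2 fold changes of CDK12 over control (x axis) for the tested genes of each list, 1 point a gene, with the list median as a bar; the number tested stands in brackets. The MYC-activated targets (median -0.11) and MYC cofactors (-0.13) have the lowest medians, and the other medians lie between -0.06 and 0.05.

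The neighbours of MYC on 8q24 did not move as a block. Of 14 tested, 4 rose (28.6%, against 16.2% of all genes) and 5 fell (35.7%, against 18.9%). PVT1, a long noncoding RNA gene directly beside MYC, was at 102, 97.9 and 101 CPM with CDK12, against 91.8, 84.8 and 87.9 CPM in controls. Its groups did not overlap and its direction was opposite to that of MYC (log2 fold change 0.19, SE 0.045, BH-adjusted p = 0.00213 in edgeR). SQLE, squalene epoxidase, fell most among the well-expressed neighbours (-0.48), and TRIB1, ASAP1 and EFR3A also fell (-0.25, -0.24 and -0.16), while TATDN1 rose (0.14). The number higher was 2 without CDK12 replicate 1, CDK12 replicate 2 or control replicate 2, and 1 without control replicate 1 or 3. PVT1 passed in each of these, and TATDN1 did not pass without CDK12 replicate 1, control replicate 1 or control replicate 3. POU5F1B, a processed copy of POU5F1 next to MYC, was at 0.466 ± 0.102 CPM with CDK12 and 0.868 ± 0.0844 CPM in controls (SD, n = 3), and its reads can be shared with its parent gene.

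Other E-box factors were mixed. The MYC paralogs MYCN (0.288 to 0.417 CPM with CDK12, 0.365 to 0.439 CPM in controls) and MYCL (13.2 ± 0.997 and 14.1 ± 0.826 CPM) were low; MYCN did not reach the filter and MYCL did not pass the test. Of 10 tested, MLXIPL and TFAP4 rose, and USF1 and SREBF2 fell. The share called was 40%, near the 35.1% of all genes. TFAP4, itself a MYC target, rose to 13 ± 0.628 CPM with CDK12, against 11.1 ± 0.467 CPM in controls, but missed the threshold in the Wald test of DESeq2 (adjusted p = 0.0853) and without CDK12 replicate 3 (0.098 in edgeR), control replicate 1 (0.0914) or control replicate 2 (0.0755). USF1, a ubiquitous E-box activator, did not pass with total counts (0.051), without CDK12 replicate 2 (0.0516) or without control replicate 1 (0.0745). SREBF2 was the 1 factor of this list lower with total counts and without control replicate 1.

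By a rule of likeness, the 5 genes nearest to MYC were sought among 10824 others with a mean of at least 5 CPM, as the root mean square difference over the 6 libraries between log2 CPM profiles centred on each gene's mean. They were POLA2, a DNA polymerase alpha subunit gene (0.0176), EFEMP1 (0.0292), PGM3 (0.0314), AMOTL2 (0.0322) and SEMA3E (0.0327), each lower with CDK12 by a log2 fold change of -0.35 to -0.38. Nearest to MXD4 were RHBDF1 (0.0111), ARHGEF18, CAPN1, PICK1 and AKT1 (0.0129), and nearest to MGA were INTS6, an Integrator subunit gene (0.0185), BTN2A1, KIAA0355, FBXO33 and HFE (0.0260). With 6 libraries in 2 groups, many genes fit a profile closely, and the values are descriptions.

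**Figure D5:**
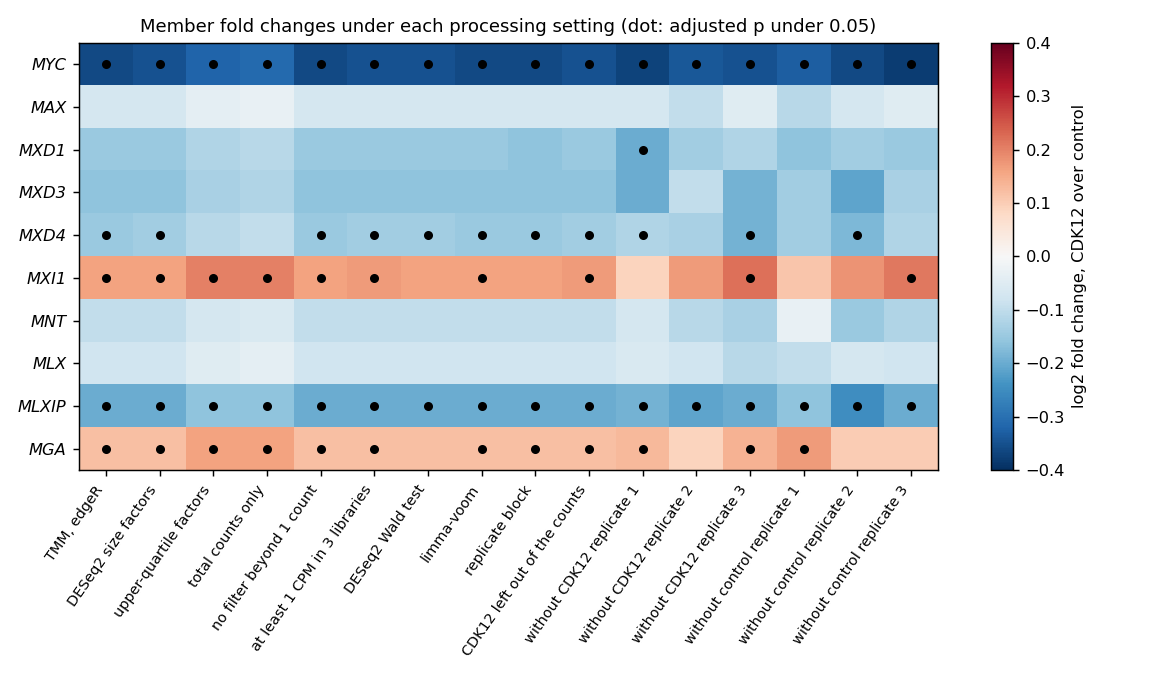
Log2 fold change of CDK12 over control for each member (rows) under each processing setting tested against no change (columns; the test against a fold of 1.2, which no member passed, is not drawn), on a colour scale from -0.4 to 0.4; a dot marks an adjusted p under 0.05. MYC and MLXIP carry a dot in every column, whereas MXD4, MXI1 and MGA lose theirs in several.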

How the data were processed

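The 6 RNA-seq libraries of ZR-75-30 cells fell into 2 groups of 3. Per the labels, polyadenylated RNA was sequenced from both ends with a strand-marking kit. The deposited files hold raw counts per gene symbol; per the submitters' processing notes the authors used CASAVA 1.8, STAR 2.6.0c and featureCounts of Subread 1.6.2 with hg19. For the counting, the strand setting and annotation were not given in the sources used here.

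Genes were kept with filterByExpr (minimum count 10, total 15; 14665 genes) and tested with edgeR 4.0.16 (TMM, quasi-likelihood F test, group as the only term, two-sided); Benjamini-Hochberg (BH) adjustment ran over these genes and the threshold was 0.05. SE is the log2 fold change divided by the root of F. A count of 3, the limit that a count of 0 allows, is 0.112 to 0.144 CPM, for counting error only. Alternatives were other scalings, filters, DESeq2 1.42.0, limma 3.58.1, a replicate block, CDK12 left out of the counts, and each library left out. The test was checked on simulated counts. Replicates of a group differed by more than sampling noise (chi-square per degree of freedom 2.74 to 4.55).

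The members and the 10 gene lists (200 symbol entries, all matched, older symbols through RefSeq) were chosen with earlier results of these data known. The naming rule took the members, CDK12, up to 4 genes per list in the commoner direction and up to 2 in the other by smallest p, and the 5 genes nearest to MYC, MXD4 and MGA; the text prints a part, and 1 gene is not reported here. SRM, CDKN1A, SIN3A, FBXW7, TDRD1, TDRKH and the genes named as passing under a single setting were chosen after their values were seen. POU5F1B also lies outside the rule, as do list genes named as uncalled or untested, such as MYCN, MYCL, ARRDC3, E2F6 and RING1. Promoters came from RefSeq (GRCh38.p14), exon lengths and overlaps from GENCODE 29.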

Additional observations from a re-analysis of the deposited data

How the results depend on the processing

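Against no change, MYC and MLXIP kept their call in every alternative, and MAX, MXD3, MNT and MLX were called in none; no member changed sign. Of all calls, 46.1% were higher under TMM. The share was 59.6% by upper-quartile scaling (3164 higher, 2144 lower) and 61.7% by total counts (3324 and 2064), and these scalings moved the median of all genes by 0.037 and 0.042 (log2). The cause of the changes below was not tested.

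MXD4 did not pass with upper-quartile factors (-0.11) or total counts (-0.10), and with DESeq2's Wald test 0 members were higher, MXI1 (0.16) and MGA (0.12) not passing. Against a fold of 1.2, 459 genes were higher and 479 lower, 0 members were higher and 0 lower, and MYC (-0.36), MXD4 (-0.15), MXI1 (0.16), MLXIP (-0.20) and MGA (0.12) did not pass. The replicate numbers did not pair the libraries (correlations of same-numbered deviations across genes -0.064, 0.0499 and 0.0282); with them as a block, 2330 genes were higher and 2776 lower, and 1 member was higher, MXI1 (0.16, BH-adjusted p = 0.0913 in edgeR) not passing.

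With upper-quartile factors, 1 MYC cofactor was higher, 4 SIN3 genes higher and 1 lower, 4 turnover genes lower, 3 PRC1.6 genes higher and 3 MLX targets higher. With total counts, 1 cofactor was higher and 5 lower, 5 SIN3 genes higher and 1 lower, 4 turnover genes lower, 3 PRC1.6 genes higher and 0 lower, 3 MLX targets higher and 1 lower, and 1 other E-box gene lower. With no filter beyond 1 count, 2 germline genes were lower. With at least 1 CPM in 3 libraries, or with CDK12 left out of the counts, 2 MLX targets were higher. With DESeq2's Wald test, 1 SIN3 gene was lower and 1 other E-box gene higher.

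Without 1 library at a time, 1789 to 2310 genes were higher and 2199 to 2735 lower, and members numbered 0 to 2 higher and 2 to 4 lower. MXD1 ran from -0.20 to -0.12, MXD4 from -0.19 to -0.12, MXI1 from 0.09 to 0.22 and MGA from 0.09 to 0.17. Higher genes numbered 0 to 1 among cofactors, 1 to 4 in SIN3, 1 to 3 in PRC1.6, 1 to 2 among MLX targets, 1 to 2 among other E-box genes and 1 to 4 on 8q24. Lower genes numbered 1 to 2 in SIN3, 4 to 7 in turnover, 1 to 2 among MLX targets, 0 to 1 among germline genes and 1 to 3 among other E-box genes. Neither SRM nor any called gene chosen by the naming rule changed sign. FBXW7 and SIN3A, which were not called, lay on either side of 0. Few counts limit MXD3, MLXIPL, POU5F1B, MYCN and the germline genes other than TDRD1 and TDRKH.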
